A study of Arabidopsis thaliana with 6 samples.

Results

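The genes described here are core low-oxygen response genes of Arabidopsis thaliana, a set of loci whose transcripts rise in many organs when oxygen is short. The set lists 30 loci, and a gene was included when a probe set of the array was paired with it alone. Of the 30 loci, 17 had such a probe set, 1 each, out of 13286 genes so measured in the series. The other 13 were not analysed here. They are ADH1 (alcohol dehydrogenase), PDC1 (pyruvate decarboxylase), SUS1 and SUS4 (sucrose synthases), HB1 (a class I haemoglobin), PCO1 and PCO2 (plant cysteine oxidases), LBD41, ETR2 (an ethylene receptor), FTM1, PHI-1, NIP2;1 and SRO5.

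Transcript levels were measured on 6 Affymetrix ATH1 arrays, 2 per group, each hybridised with RNA from a separate liquid culture of whole 9-day-old seedlings. The first group was the mp-B4149 mutant of MONOPTEROS (MP), an auxin response factor, given 10 µM dexamethasone (DEX, a synthetic glucocorticoid) for 1 h followed by 1 h with 50 µM IAA, an auxin. The second was a line with pRPS5A-Myc-GR-bdl, given the same DEX and IAA. This transgene uses the RPS5A promoter, active in dividing tissue, to make a stabilised form of the auxin repressor BODENLOS fused to a glucocorticoid receptor domain, which DEX releases into the nucleus. The third group was the same line given IAA alone, called the IAA-only controls below. The titles of the mp samples name IAA alone, while their source labels name DEX and IAA, which are followed here. By these labels, all 6 cultures carried IAA in gently shaken liquid, no mp culture lacked DEX, and no culture was labelled as short of oxygen. The labels used here give neither the accession background of the lines nor how mp seedlings were picked, and MP and BODENLOS had no probe set paired with 1 gene, so the labels were not checked on them.

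In plants, low oxygen is sensed through the stability of ethylene response factors of group VII. With oxygen present, plant cysteine oxidases oxidise their amino-terminal cysteine and the proteins are degraded. When oxygen falls they persist and switch on a set of genes that moves carbon from respiration to sucrose cleavage, glycolysis and ethanol fermentation. Many genes of the set have no assigned function, and in the annotation used here only CML38, PDC2 and HRA1 of the 17 measured genes have a name, so the others are given by locus.

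Levels are the log2 of the gcRMA intensity, a background-corrected and between-array normalised signal, and a level under 4 is called close to the floor here, since 43.1 to 44.1% of each array's probe sets fell below it. The array medians of intensity ran from 26.1 to 27.1. Differences are on the log2 scale with limma standard errors (SE). A gene is said to have risen or fallen when its limma p, adjusted over all 22746 probe sets by Benjamini-Hochberg, was under 0.05.

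Low-oxygen genes were higher in mp seedlings than in either GR-bdl group, and none passed the test between the GR-bdl groups. Against the IAA-only controls, 15 of the 17 genes rose in mp, 1 fell and 1 was not called. Of all probe sets 23.9% rose, 17.5% fell and 41.5% were called in either direction in that comparison. Against GR-bdl seedlings with DEX the counts were the same, 15 higher, 1 lower and 1 not called, where 22.1% of all probe sets rose, 18% fell and 40.1% were called. The same 15 genes rose in both. When only the 13029 probe sets with a mean level above 4 were fitted, 3993 rose and 3068 fell against the controls. Against GR-bdl with DEX 3945 rose and 3187 fell there. All of these counts are larger shares of the probe sets fitted than the shares given above over all probe sets. In each comparison 15 of the 17 genes again rose. The comparisons share the mp arrays and are not independent of each other. The genes were chosen with earlier results of these data known, so the counts describe the set and do not test it. Between mp and the IAA-only controls both line and DEX differed, and their parts cannot be told apart there. The median difference over the 17 genes was 1.09 against the IAA-only controls and 0.99 against GR-bdl with DEX, while the median over all probe sets was 0.12 and 0.07.

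**Figure D1:**
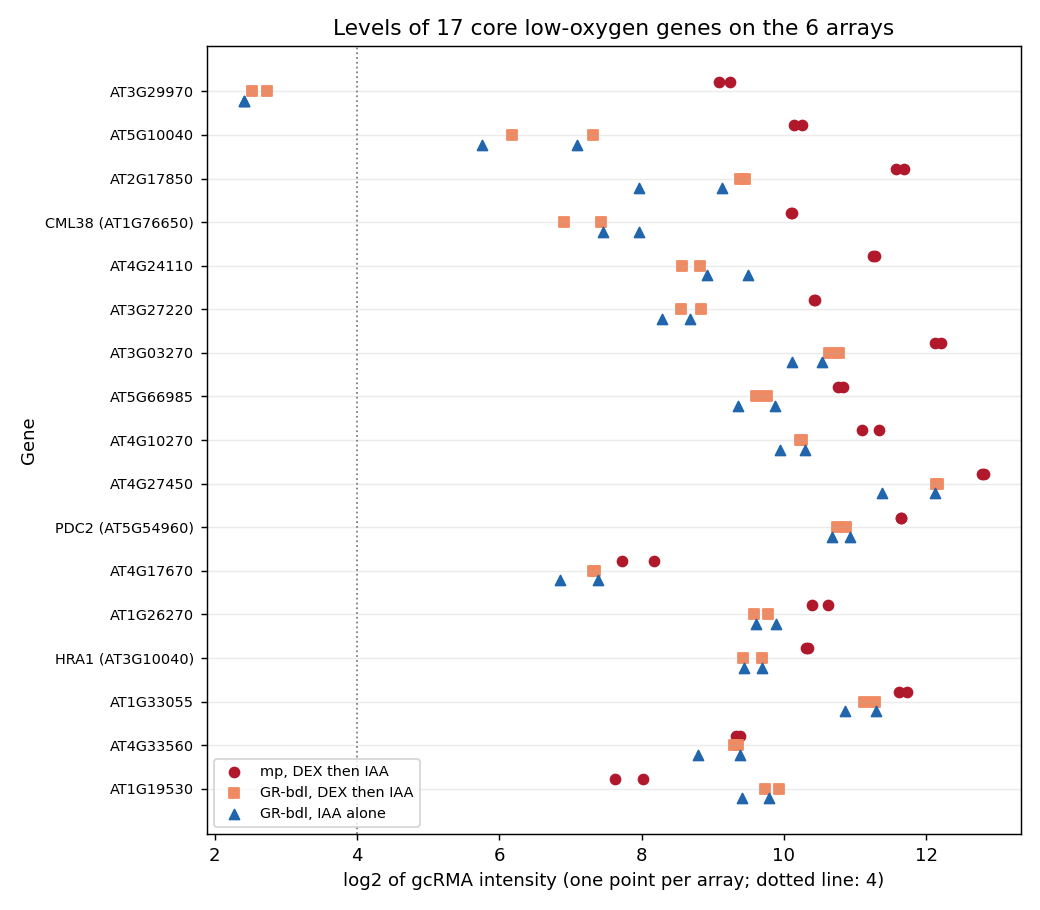
Level of each of the 17 genes (vertical axis) on each array, as log2 of the gcRMA intensity (horizontal axis). Red circles are mp, orange squares GR-bdl with DEX and IAA, blue triangles GR-bdl with IAA alone, 2 arrays each. In 15 genes both mp points lie right of all 4 GR-bdl points, in AT1G19530 they lie left of them, and in AT4G33560 the points overlap.

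One IAA-only control array stood apart from its partner in these genes. Control array 2 was below control array 1 in 16 of the 17 genes, by a median of 0.43, and the 17th, AT3G29970, was close to the floor on both arrays. Over all probe sets the median gap between the same arrays was −0.01, and 48.5% of them were higher on control array 1. The gap exceeded 0.3 in 13 of the 17 genes, against 9.08% of all probe sets and 10.3% of those with a mean level above 4. In mp the 2 arrays differed by more than 0.3 in 2 of the 17 genes, against 17.8% of all probe sets. In GR-bdl with DEX they did in 2, against 21.1% of all probe sets. Control array 2 held the lowest of the 4 GR-bdl values in 12 of the 17 genes, and the share over all probe sets was not counted. Of 9 further low-oxygen genes described below, 7 were also higher on control array 1, with a median gap of 0.39. The source of this gap was not tested. Differences printed below for the 17 genes are also given without a control array where that moved them over 1.5 times or changed the call.

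**Figure D2:**
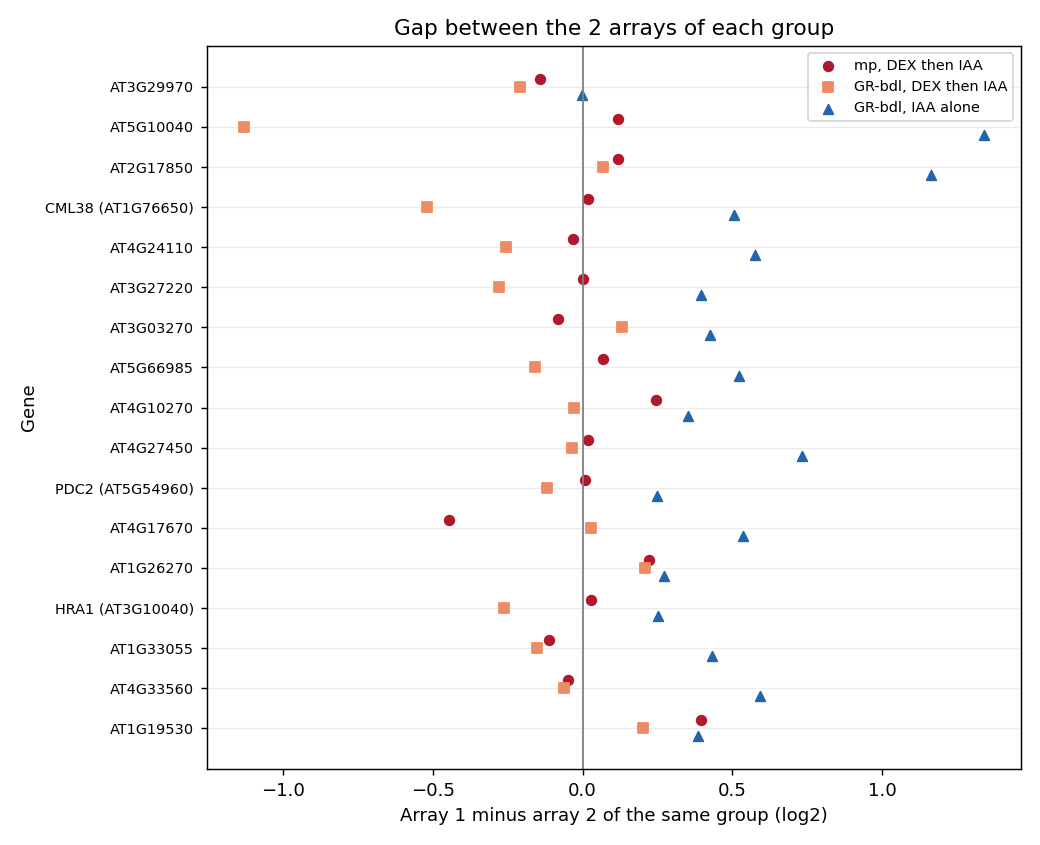
Level on array 1 minus level on array 2 of the same group (log2, horizontal axis) for each of the 17 genes (vertical axis); red circles are mp, orange squares GR-bdl with DEX and IAA, blue triangles GR-bdl with IAA alone. The blue points lie right of 0 in 16 genes and reach 1.34, while the red points lie between −0.45 and 0.40.

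Among the genes of known function, HRA1 (AT3G10040) encodes a transcription factor that dampens the low-oxygen response in Arabidopsis. Its level was 10.33 and 10.31 in mp, 9.43 and 9.69 in GR-bdl with DEX, and 9.69 and 9.44 in the IAA-only controls. The mp arrays lay above all 4 GR-bdl arrays, which overlapped each other. HRA1 rose in mp by 0.75 ± 0.14 against the controls (limma adjusted p = 0.00259) and by 0.76 ± 0.14 against GR-bdl with DEX (0.00251).

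CML38 (AT1G76650) encodes a calmodulin-like calcium sensor. It stood at 10.12 and 10.10 in mp, at 6.92 and 7.43 in GR-bdl with DEX, and at 7.96 and 7.46 in the IAA-only controls. Again both mp arrays were above all others. CML38 rose by 2.40 ± 0.21 against the controls, which is 5.28-fold (limma adjusted p = 3.67e-05). Set against GR-bdl with DEX, the rise was 2.93 ± 0.21, or 7.64-fold (1.12e-05).

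PDC2 (AT5G54960) encodes a pyruvate decarboxylase, which turns pyruvate into acetaldehyde in the first step of ethanol fermentation. Its level was 11.65 and 11.64 in mp, 10.75 and 10.87 in GR-bdl with DEX, and 10.92 and 10.67 in the IAA-only controls. PDC2 rose by 0.85 ± 0.12 (limma adjusted p = 0.000754) and 0.84 ± 0.12 (0.000827) against these groups, which is 1.80-fold and 1.79-fold. The shift was smaller than that of CML38, and the 2 mp arrays differed by less than the arrays of either GR-bdl group.

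The remaining genes have no assigned name in the annotation used here. AT3G29970 had the largest difference of the 17. It lay at 9.09 and 9.24 in mp, at 2.53 and 2.74 in GR-bdl with DEX, and at 2.41 and 2.41 in the IAA-only controls. It was thus close to the floor in all 4 GR-bdl arrays and well above it in mp. AT3G29970 rose by 6.75 ± 0.12 against the controls (limma adjusted p = 1.38e-08) and by 6.53 ± 0.12 against GR-bdl with DEX (1.62e-08). Its fold (108 and 92.7) depends on how the background was set, since with 16 added to every intensity the difference was 4.79 and 4.73.

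AT5G10040 and AT2G17850 followed in size against the IAA-only controls. AT5G10040 stood at 10.26 and 10.14 in mp, 6.18 and 7.31 in GR-bdl with DEX, and 7.09 and 5.75 in the controls. AT2G17850 stood at 11.69 and 11.58 in mp, 9.45 and 9.38 in GR-bdl with DEX, and 9.13 and 7.97 in the controls. In both genes mp was above every GR-bdl array, and the 2 control arrays were more than 1 apart, as were the 2 DEX-treated arrays in AT5G10040. AT5G10040 rose by 3.77 ± 0.45 against the controls (limma adjusted p = 0.000232) and by 3.45 ± 0.45 against GR-bdl with DEX (0.000402). Without control array 1 or 2 the first of these was 4.44 or 3.10, and without DEX-treated array 1 or 2 the second was 2.89 or 4.02. AT2G17850 rose by 3.09 ± 0.31 against the controls (limma adjusted p = 8.57e-05) and by 2.22 ± 0.31 against GR-bdl with DEX (0.000591). Without control array 1 or 2 the first of these was 3.67 or 2.50.

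AT4G24110, AT3G27220 and AT3G03270 formed a middle range. AT4G24110 was at 11.25 and 11.28 in mp, 8.56 and 8.82 in GR-bdl with DEX, and 9.49 and 8.92 in the IAA-only controls. AT3G27220 was at 10.43 and 10.43 in mp, 8.56 and 8.83 in GR-bdl with DEX, and 8.68 and 8.29 in the controls. AT3G03270 was at 12.13 and 12.21 in mp, 10.77 and 10.64 in GR-bdl with DEX, and 10.54 and 10.11 in the controls. None of these mp values overlapped with a GR-bdl value. Against the controls they rose by 2.06 ± 0.19, 1.94 ± 0.16 and 1.84 ± 0.15, and against GR-bdl with DEX by 2.57 ± 0.19, 1.73 ± 0.16 and 1.46 ± 0.15. The largest limma adjusted p of these 6 tests was 0.000111.

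AT5G66985, AT4G10270, AT4G27450 and AT1G26270 rose less. AT5G66985 had 10.83 and 10.76 in mp, 9.61 and 9.77 in GR-bdl with DEX, and 9.88 and 9.36 in the IAA-only controls, a rise of 1.18 ± 0.17 against the controls (limma adjusted p = 0.000746) and 1.11 ± 0.17 against GR-bdl with DEX (0.00105). AT4G10270 had 11.34 and 11.10 in mp, 10.22 and 10.25 in GR-bdl with DEX, and 10.30 and 9.95 in the controls, a rise of 1.09 ± 0.15 (0.000502 by limma) and 0.99 ± 0.15 (0.000917). In these genes too the mp arrays were above all others. AT4G27450, at 12.80 and 12.78 in mp, rose by 1.04 ± 0.21 against the controls (12.12 and 11.38, limma adjusted p = 0.00432) and by 0.65 ± 0.21 against GR-bdl with DEX (12.13 and 12.17). Without control array 2 the difference of AT4G27450 from the controls was 0.68, and it was still called (0.0117 by limma), while without control array 1 it was 1.41. AT1G26270, at 10.62 and 10.39 in mp, rose by 0.76 ± 0.14 against the controls (9.88 and 9.61, limma adjusted p = 0.00329) and by 0.83 ± 0.14 against GR-bdl with DEX (9.78 and 9.57, 0.00206).

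The calls of AT4G17670 and AT1G33055 depended on which arrays were used. AT4G17670 had 7.73 and 8.18 in mp, 7.34 and 7.31 in GR-bdl with DEX, and 7.38 and 6.85 in the IAA-only controls. AT1G33055 had 11.62 and 11.73 in mp, 11.13 and 11.28 in GR-bdl with DEX, and 11.29 and 10.86 in the controls. The mp arrays lay above the others in both, but by little. Against the controls AT4G17670 rose by 0.84 ± 0.20 (limma adjusted p = 0.0106) and AT1G33055 by 0.60 ± 0.16 (0.0153). Both lost that call without control array 2, with differences of 0.57 and 0.38 (limma adjusted p = 0.0748 and 0.125), and without mp array 2, with 0.61 and 0.54 (0.0695 and 0.0750). The SE of a gene pools the spread of all groups, so the gap between the control arrays also enters comparisons without them. For AT4G27450 the SD was 0.01 in mp, 0.03 in GR-bdl with DEX and 0.52 in the controls. Against GR-bdl with DEX, AT4G17670 (0.63 ± 0.20), AT4G27450 and AT1G33055 (0.47 ± 0.16) had limma adjusted p values of 0.0372, 0.0389 and 0.0420. There AT4G27450 and AT1G33055 lost the call without either mp array or either DEX-treated array (0.0700 to 0.159), with differences of 0.63 to 0.66 and 0.40 to 0.55. AT4G17670 lost it without either DEX-treated array (0.64 and 0.61, adjusted p = 0.102 and 0.124) and without mp array 2 (0.40, 0.207). Of these differences from GR-bdl with DEX, only the last was more than 1.5 times smaller than with all arrays. Against the controls, that of AT1G33055 without control array 2 was too.

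The other 2 genes did not follow the others. AT1G19530 was the one gene that fell in mp, with 8.02 and 7.62 in mp, 9.94 and 9.73 in GR-bdl with DEX, and 9.79 and 9.41 in the IAA-only controls. Both mp arrays were below all 4 GR-bdl arrays. Its difference was −1.78 ± 0.18 against the controls, 3.43-fold lower (limma adjusted p = 8.92e-05), and −2.01 ± 0.18 against GR-bdl with DEX, 4.03-fold lower (4.44e-05). AT4G33560 had 9.33 and 9.38 in mp, 9.30 and 9.36 in GR-bdl with DEX, and 9.38 and 8.79 in the controls. Its differences of 0.27 ± 0.18 and 0.02 ± 0.18 did not pass (limma adjusted p = 0.266 and 0.933). Without control array 1 the first was 0.57 and was called (0.0266), and without control array 2 it was −0.03.

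**Figure D3:**
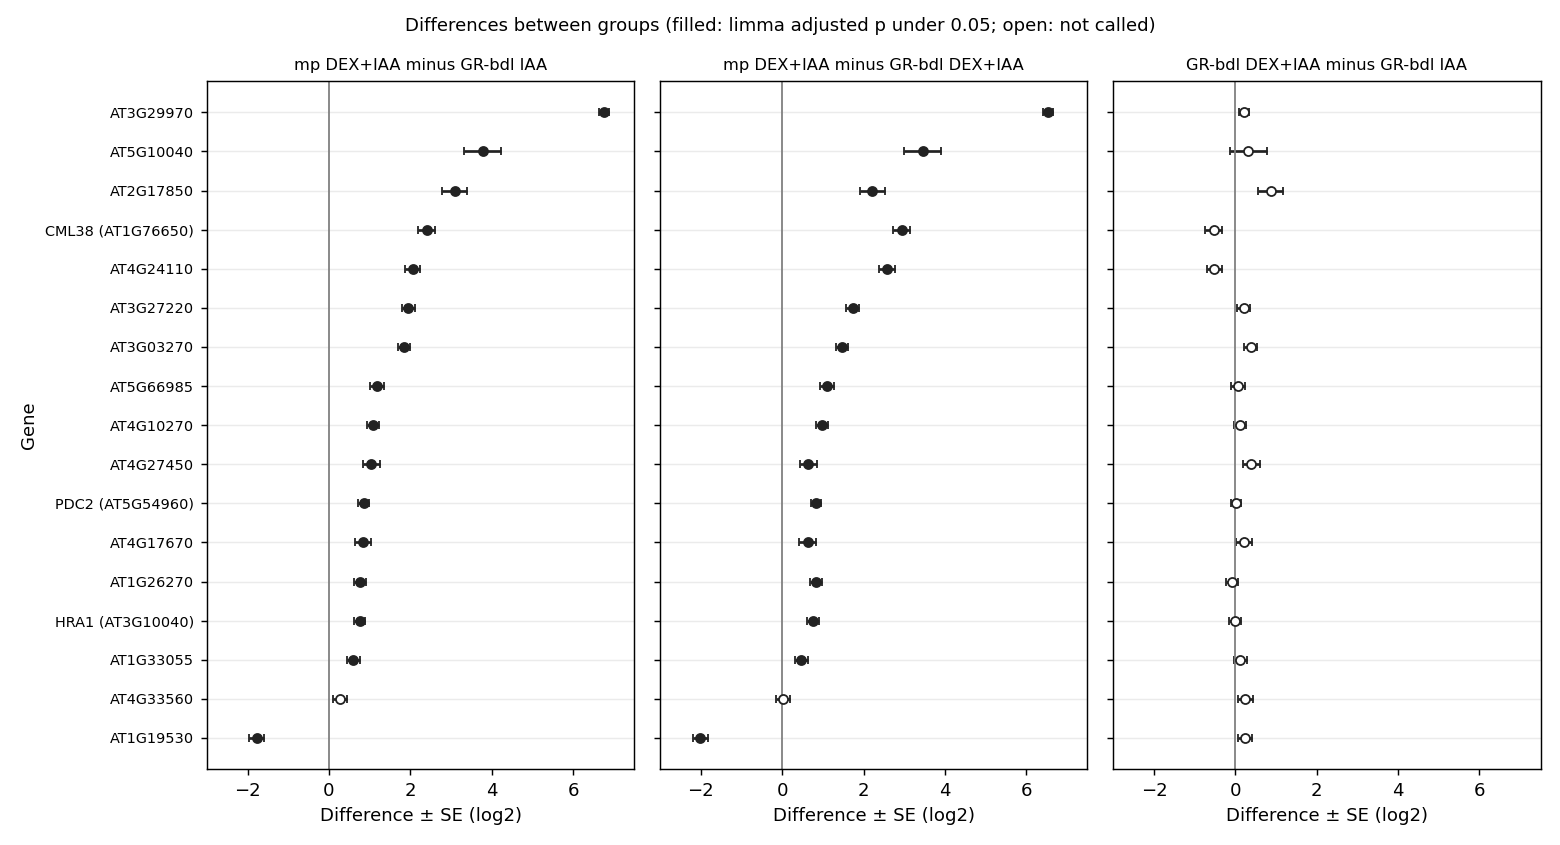
Difference of each of the 17 genes in log2 ± limma SE (horizontal axis), in 3 panels: mp against the IAA-only controls, mp against GR-bdl with DEX, and GR-bdl with DEX against the IAA-only controls. Filled points passed limma at an adjusted p under 0.05. In the mp panels 16 of the 17 points are filled, and in the third none is.

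By size, 10 of the 17 genes rose in mp by at least 1 on the log2 scale against the IAA-only controls, and 1 fell by as much, where 7.53% and 7.84% of all probe sets did. With GR-bdl with DEX as the comparison, 8 of 17 rose and 1 fell by as much, where 7.63% and 7.63% of all probe sets did. Ranked by difference among all probe sets, 12 of the 17 genes lay in the highest 10% against the controls and 10 against GR-bdl with DEX. The mp arrays lay wholly above the controls in 15 genes and wholly below in 1, where such a separation occurred in 48.5% and 28.3% of all probe sets. Against GR-bdl with DEX the counts were again 15 and 1, where it occurred in 40% and 28.5%. The 2 mp arrays lay close together in these genes. The median SD over the 17 was 0.06 in mp, 0.11 in GR-bdl with DEX and 0.31 in the IAA-only controls, where the median over all probe sets was 0.10, 0.11 and 0.07.

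**Figure D4:**
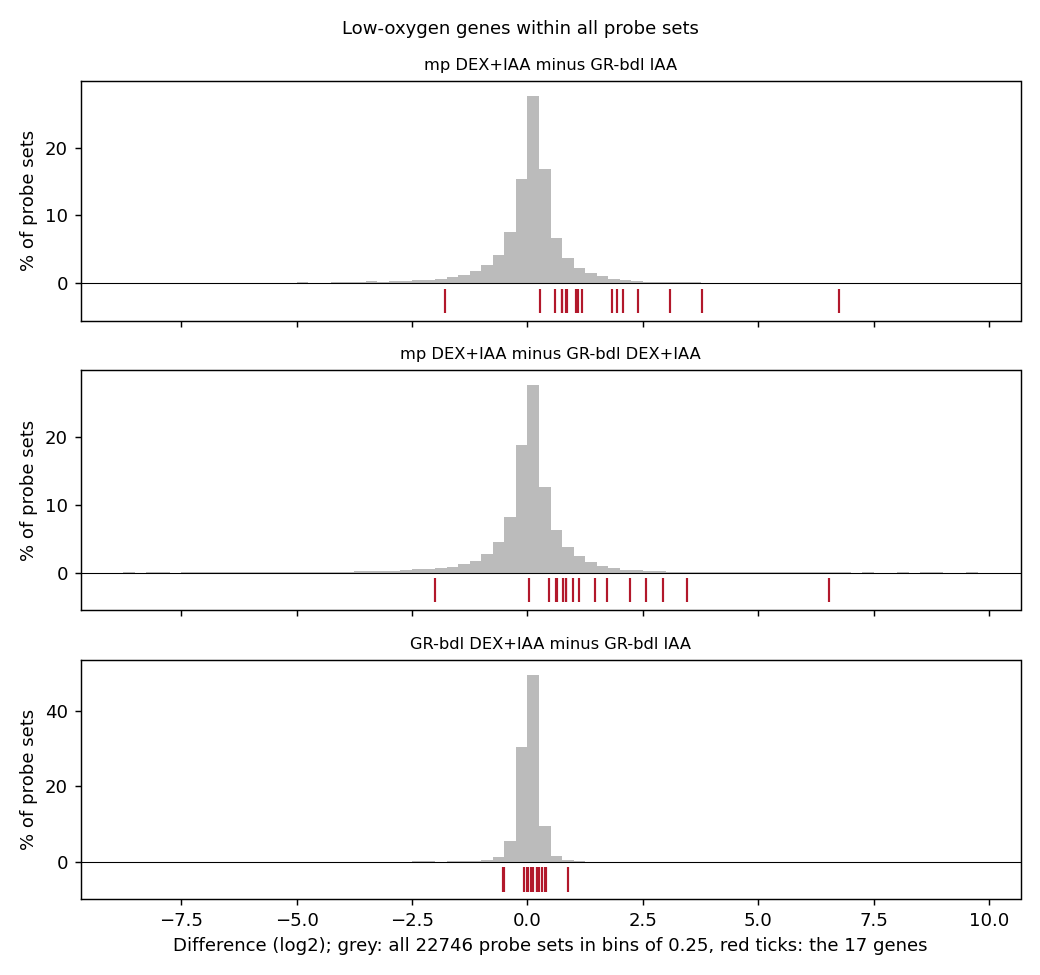
Distribution of the differences of all 22746 probe sets (grey bars, percent of probe sets in bins of 0.25 log2 units) with the 17 low-oxygen genes as red ticks below each axis, for mp against the IAA-only controls, mp against GR-bdl with DEX, and GR-bdl with DEX against the controls. The medians of the ticks are 1.09, 0.99 and 0.21, and those of all probe sets 0.12, 0.07 and 0.04.

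A scale tied to the control transcripts added at hybridization changed these counts. The 18 hybridization control probe sets differed by a median of 0.33 between mp and the IAA-only controls and by 0.24 between mp and GR-bdl with DEX. Centring the arrays on them lowered the median of all probe sets by 0.31 and 0.29. After that centring 13 of the 17 genes rose and 1 fell against the controls, where 11.6% of all probe sets rose and 30.7% fell. Against GR-bdl with DEX 12 rose and 1 fell, where 12.2% and 31.4% of all probe sets did. The higher share of all calls then stood at 27.5% and 28%, against 57.7% and 55.2% without it. Another kind of added control, the 27 poly-A control probe sets, differed by a median of 0.57 and 0.16 in the mp comparisons. Between GR-bdl with DEX and the IAA-only controls they differed by 0.36, and the hybridization controls by 0.05. Centring on the poly-A controls was not run.

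Between GR-bdl with DEX and the IAA-only controls none of the 17 genes was called by limma. In this comparison 2.27% of all probe sets were called, 0.637% higher and 1.64% lower. At an unadjusted p under 0.05 there were 4 of 17 genes, 2 in each direction, and 12.4% of all probe sets. These were AT2G17850 (0.87 ± 0.31) and AT3G03270 (0.38 ± 0.15), higher with DEX, and CML38 (−0.53 ± 0.21) and AT4G24110 (−0.51 ± 0.19), lower with DEX. The smallest limma adjusted p of the 17 was 0.284. The 95% intervals of the single genes had their lowest end at −1.01 and their highest at 1.58. They were not adjusted for the number of genes and rest on 2 arrays per group, so they do not exclude larger changes. AT2G17850 was called higher without control array 1 (1.45, limma adjusted p = 0.00394), and differed by 0.29 without control array 2. Without control array 1 or 2, AT3G03270 differed by 0.59 or 0.16, CML38 by −0.28 or −0.79, and AT4G24110 by −0.23 or −0.80, none of them called. With all arrays, HRA1 (−0.01 ± 0.14) and PDC2 (0.01 ± 0.12) had the smallest differences. Without control array 1 or 2, HRA1 differed by 0.12 or −0.13 and PDC2 by 0.14 or −0.11, and neither was then the smallest. Differences of other genes also moved with the control array left out, that of AT5G10040 (0.32 ± 0.45) to 0.99 or −0.35. The DEX-treated arrays lay wholly above the controls in 4 genes and wholly below in 2, where 29% and 15.2% of all probe sets did.

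Other genes of the low-oxygen response were taken from lists drawn up from general knowledge of the pathway. Earlier results of these data were known when the lists were chosen, so the counts below are description and not independent support. Of 19 further genes of the widely used low-oxygen set, 9 were measured. Against the IAA-only controls 7 rose in mp, 1 fell and 1 was not called, with a median difference of 0.85, where 23.9% of all probe sets rose and 17.5% fell. One of the 7, AT5G45960, was under 4 on every array. Against GR-bdl with DEX 5 rose, 1 fell and 3 were not called, with a median of 0.54, where 22.1% of all probe sets rose and 18% fell. AT5G42200 was at 9.51 and 9.92 in mp, 4.96 and 5.54 in GR-bdl with DEX, and 4.26 and 4.30 in the controls. AT1G72940 was at 11.71 and 11.97 in mp, 7.85 and 8.14 in GR-bdl with DEX, and 8.30 and 8.32 in the controls. Neither gene overlapped between mp and GR-bdl. Against the controls they rose by 5.44 ± 0.20 and 3.53 ± 0.14, and AT5G44730 by 2.05 ± 0.14. In the comparison with DEX-treated GR-bdl they rose by 4.47 ± 0.20, 3.85 ± 0.14 and 1.77 ± 0.14, and the largest limma adjusted p of these 6 tests was 2.2e-05. AT4G39675 was the 1 gene of these that fell, with differences of −2.56 ± 0.33 and −3.10 ± 0.33 (0.000407 and 0.000139 by limma). Between GR-bdl with DEX and the controls 1 of the 9 was called, AT1G74940, higher by 0.95 ± 0.17 (limma adjusted p = 0.0271).

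The enzymes of sucrose breakdown, glycolysis and fermentation were a mixed group. Of 42 listed genes 10 were measured. Against the IAA-only controls 4 rose in mp, 1 fell and 5 were not called, with a median difference of 0.14, where 23.9% of all probe sets rose and 17.5% fell. One of the 4, AT4G26390, was under 4 on every array. Against GR-bdl with DEX 2 rose, 1 fell and 7 were not called, which is near the 22.1% and 18% of all probe sets. AT4G17260 rose by 1.04 ± 0.15 and 1.01 ± 0.15 and AT5G42740 by 0.52 ± 0.10 and 0.61 ± 0.10, while AT5G56350 fell, with differences of −0.71 ± 0.12 and −0.996 ± 0.12. GAPC2, a cytosolic glyceraldehyde phosphate dehydrogenase, differed by 0.12 ± 0.11 and 0.07 ± 0.11, and TPI, triosephosphate isomerase, by 0.16 ± 0.11 and 0.10 ± 0.11. ENOC, a cytosolic enolase, differed by 0.01 ± 0.10 and −0.12 ± 0.10. None of the 10 was called between the GR-bdl groups, where the median difference was 0.05.

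Of 25 listed ethylene genes 3 were measured, and all 3 fell in both mp comparisons, where 17.5% and 18% of all probe sets fell. One of them, AT1G12010, was under 4 on every array. EIN3, the master transcription factor of ethylene response, had 9.71 and 9.64 in mp, 10.56 and 10.34 in GR-bdl with DEX, and 10.39 and 10.43 in the IAA-only controls. It fell, with differences of −0.73 ± 0.12 against the controls and −0.77 ± 0.12 against GR-bdl with DEX (limma adjusted p = 0.00135 and 0.00104). RTE1, which acts with the receptor ETR1, fell too (−0.94 ± 0.10 and −1.24 ± 0.10). Of 9 listed genes for alternative respiration 2 were measured, of which NDB2, an external NAD(P)H dehydrogenase, fell (−1.05 ± 0.21 and −0.71 ± 0.21), and NDB4, under 4 on every array, differed by 0.27 ± 0.11 and −0.04 ± 0.11. The lists of oxygen sensing by cysteine oxidation (14 listed), further phytoglobins (2) and sugar starvation (15) were not analysed. In the annotation used here none of their genes had a probe set paired with it alone.

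**Figure D5:**
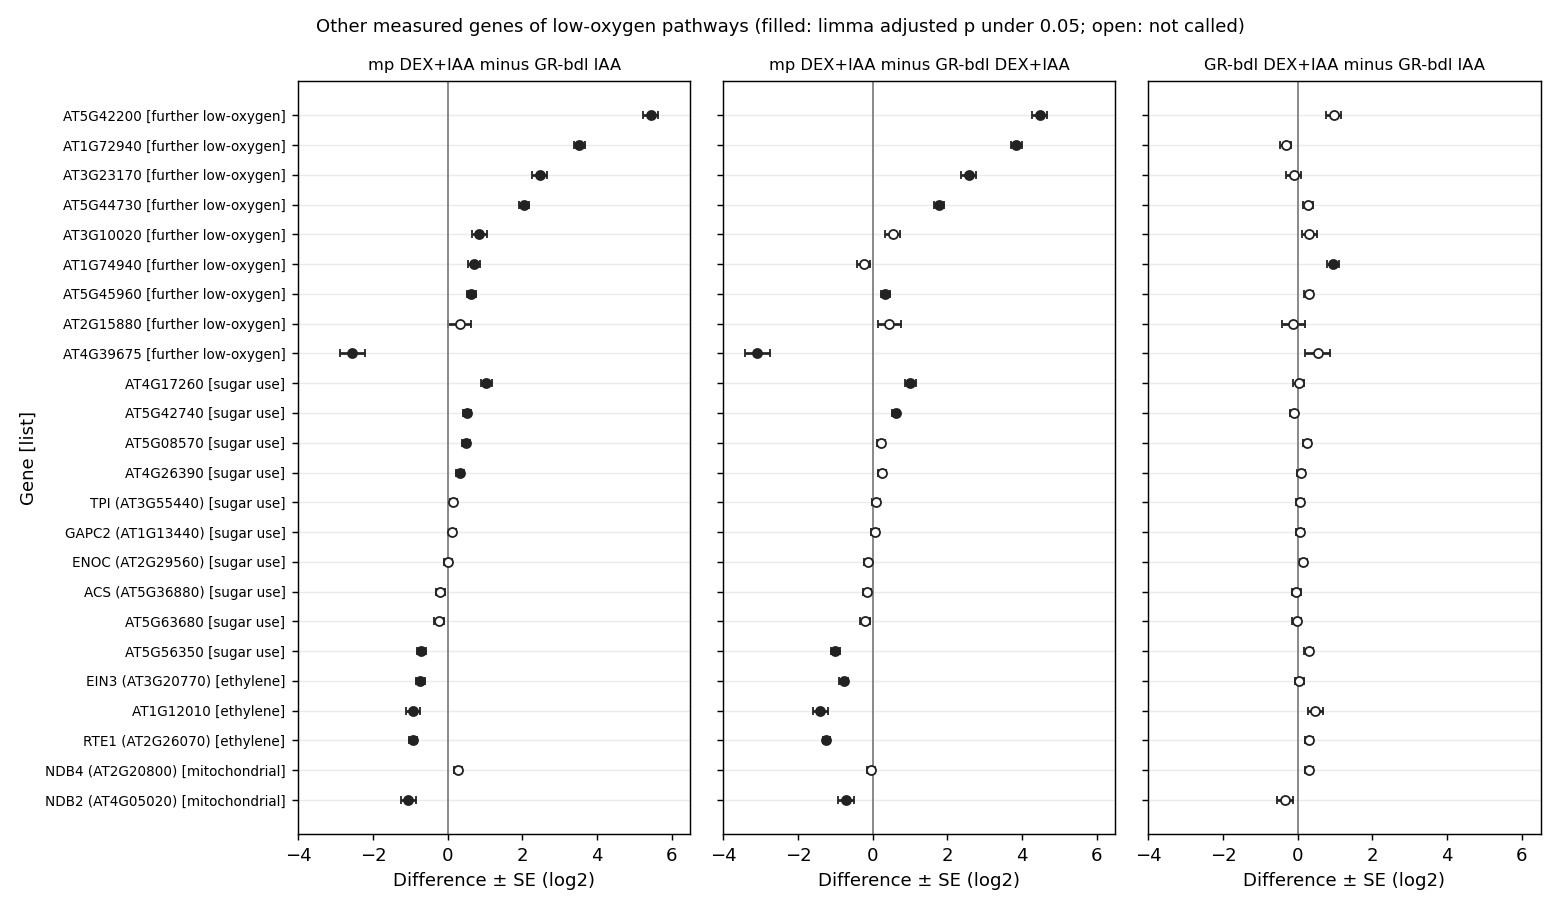
Difference in log2 ± limma SE (horizontal axis) of 24 other measured genes of low-oxygen, sugar use, ethylene and mitochondrial lists, in the same 3 panels. Filled points passed limma at an adjusted p under 0.05. AT5G42200 lies farthest right in the first mp panel and AT4G39675 farthest left, and all 3 ethylene genes lie left of 0 in both mp panels.

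Root markers moved with the mp comparisons. Of 27 listed root markers 5 were measured. In mp 4 of them fell against each GR-bdl group, where 17.5% (against the IAA-only controls) and 18% (against GR-bdl with DEX) of all probe sets fell. EXPA7, EXPA18 (expansins of root hairs), JKD and AT1G30870 were all close to the floor in mp, as JKD was on average (3.88) in GR-bdl with DEX. Their summed intensity was 40.8 to 41.2 in mp, 558 to 760.2 in GR-bdl with DEX and 703 to 779 in the IAA-only controls. The 5th, PYK10, was not called (0.10 ± 0.11 in both comparisons), and with it the sum was 9786 to 10421 in mp, 9844 to 10263 in GR-bdl with DEX and 9926 to 10273 in the controls. Of 20 photosynthesis markers 5 were measured, with sums of 41811 to 43510 in mp, 44075 to 45896 in GR-bdl with DEX and 43610 to 43956 in the controls. Against the controls 1 of the 5 was called, higher in mp, where 41.5% of all probe sets were called in either direction. Against GR-bdl with DEX none was, where 40.1% of all probe sets were. The part of organ make-up in the low-oxygen difference was not tested. In whole seedlings, a changed number of cells of a type and a changed amount of RNA per cell cannot be told apart.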

How the data were processed

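RNA of 6 whole-seedling cultures was measured on ATH1 arrays. The deposited values are intensity values that the authors made with gcRMA, per the submitters' processing notes (version not given in the sources used here). They are on a linear scale, since they reach 18659. The log2 of each value was analysed, without a pseudocount or a filter on low values, after removal of 64 control probe sets. Groups come from the source labels and the design text. The platform annotation pairs 13513 of the 22746 probe sets with 1 gene, 503 with several genes and 8730 with no gene. A total of 13436 matched a RefSeq locus (assembly TAIR10.1, used for names only).

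A limma fit (limma 3.58.1, R 4.3.3) over all 6 arrays tested the differences, with a mean per group, 3 residual and 5.12 prior degrees of freedom, checked on simulated data. Replicate numbers did not enter the fit. The members and lists were chosen with earlier results of these data known. All measured members are named, with up to 3 called genes per other list and comparison by smallest p, and uncalled examples chosen after their values were seen. Alternatives were other normalizations, a filter, a pseudocount, a block, left-out arrays, other variance settings and a size minimum. No promoter or protein sequence was used here, so the planned motif search was not run. Figures were drawn in Python 3.11.15 with matplotlib 3.10.9.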

Additional observations from a re-analysis of the deposited data

How the results depend on the processing

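With 2 arrays per group the number of arrays limits the precision, and a lone array in a left-out fit is assumed to vary like the other groups. In mp, 15 low-oxygen genes rose against the IAA-only controls, with 13 to 16 when each array was left out, and 15 against GR-bdl with DEX, with 12 to 15. A minimum of 1 on the log2 scale gave 10 and 8. AT1G19530 was called lower under every alternative run, and no called gene changed sign. Between the GR-bdl groups the count of rises was 0 to 1. For each gene 15 alternatives were run. Of 255 values per comparison, 13 lost and 1 gained a call in mp against the controls, 28 lost one in mp against GR-bdl with DEX, and 1 gained one between the GR-bdl groups. Apart from the size minimum, the losses fell on AT4G17670, AT1G33055 and AT4G27450. Repeated quantile normalization gave 14 and 12 rises in the mp comparisons, and 16 added to the intensities gave 14 and 12.

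Over all probe sets, centring on hybridization controls gave 2644 higher and 6984 lower in mp against the controls, and 2779 and 7139 against GR-bdl with DEX. The size minimum gave 1712 and 1784, and 1735 and 1735. Between the GR-bdl groups it gave 33 and 229, and 16 added to the intensities gave 41 and 190, against 145 and 372. Leaving out each array there gave 24 to 105 higher and 216 to 332 lower, with 24 and 216 without control array 2, 50 and 225 without control array 1, and 89 higher without DEX-treated array 2. Arrays of the same number did not deviate together in every pair of groups (correlations of 0.13, −0.06 and −0.02 over 13029 probe sets). The replicate block gave 15 low-oxygen genes higher and 1 lower in both mp comparisons and 0 between the GR-bdl groups, with 161 higher and 398 lower probe sets there. Using all probe sets of a gene in place of 1 was not run, since each measured gene had 1.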
